A study of Drosophila melanogaster with 10 samples.

Results

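Oenocytes of adult Drosophila melanogaster males that carried one of 2 different RNAi hairpins against fruitless (fru) were compared directly with each other, without reference to the control. The genes described are the 11520 of 13986 in the count table that passed a filter on low counts in the 4 libraries of these lines. Flies of one line carried the driver prom-E800-Gal4 with Fru-RNAi (BDSC#31593), a hairpin of the Bloomington stock centre, and those of the other carried the same driver with Fru-RNAi (VDRC105005), a hairpin of the Vienna stock centre. Each line has 2 of the 10 libraries of the study. Both were kept at 25 °C until eclosion and then at 29 °C for 7 days, at 60% relative humidity and a 12-h light/dark cycle, and polyadenylated RNA of dissected oenocytes was sequenced. Control flies, given beside the lines only as a description, carried prom-E800-Gal4,UAS-mCD8-GFP and were kept in the same way. The driver is active in oenocytes, but hand-dissected tissue can hold neighbouring cells, and each hairpin line comes from its own stock with its own genetic background. In such bulk RNA, fewer cells of a type and less RNA per cell cannot be told apart. The labels do not say whether the 2 libraries of a line came from separate animals, so the p-values measure the spread between libraries, which may be technical.

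fru encodes BTB zinc-finger transcription factors. Its male-specific products direct courtship circuits in the nervous system, and other products, such as FruCOM, are made in both sexes. Oenocytes are hepatocyte-like cells under the abdominal cuticle that make very long chain fatty acids and turn them into cuticular hydrocarbons, some of which serve as pheromones. Acetyl-CoA is built into fatty acids by acetyl-CoA carboxylase and fatty acid synthases, lengthened by elongases, reduced by acyl-CoA reductases and finally decarbonylated by the cytochrome P450 Cyp4g1. In RNAi, a long double-stranded hairpin is cut by Dicer-2 into short RNAs that guide Argonaute-2 to the target transcript. Hairpins to different stretches of one transcript share the intended target but differ in their short RNAs, in the place and markers of their transgenes and in the stock background. A direct comparison shows how far the transcriptomes of lines with a common target lie apart.

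The 4 libraries held between 24092151 and 34190089 counts. Cyp4g1, a defining oenocyte gene, stood at 136700 and 132700 CPM (counts scaled to a common library total) in the libraries labelled 31593 and at 157900 and 153900 CPM in those labelled VDRC105005, and all 15 oenocyte markers were measured. Replicates lay close together among genes of at least 32 CPM, where the median difference between the libraries of a line was 0.04 on the log2 scale in both lines. Over all 11520 genes the median was 0.093 in the line labelled 31593 and 0.085 in that labelled VDRC105005. The SD of the log2 ratio between replicates was 0.514 and 0.446 there, beside 0.567 for the ratio between the lines. The first principal component held 58.3% of the variance and separated the lines, and the second held 32.6% and separated the libraries numbered 1 from those numbered 2 in both lines. Genes of gut digestion followed the second split. The 57 members of that list summed to 599 and 1901 CPM in libraries 1 and 2 labelled 31593 and to 902 and 1684 CPM in those labelled VDRC105005. Of the 55 members tested, 3 (5.45%) were called higher and 4 (7.27%) lower between the lines, beside 18.0% and 18.4% of all genes tested.

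The targeted gene itself differed between the lines, and not in the direction of a knockdown in both. fru, on the minus strand of chromosome 3R (18414273 to 18545586, release 6 of the genome), stood at 23.7 and 24.3 CPM in the libraries labelled 31593, at 7.35 and 7.29 CPM in those labelled VDRC105005 and at 11.9 and 11.6 CPM in control. No library of one genotype overlapped with another: those labelled 31593 were 2.04 times the control mean, against the label of a knockdown, and those labelled VDRC105005 were 0.622 times that mean. Between the lines the log2 fold change was 1.71 (SE 0.06, adjusted p = 8.8e-06), positive where the libraries labelled 31593 are higher. On the deposited length-scaled values (TPM rescaled between libraries) fru stood at 7.29 and 7.32 against 1.6 and 1.62, a ratio of 4.53 where CPM gave 3.28. Reads from the hairpin transcript and from the endogenous gene are not separated in a table with one value per gene, and their part in this difference was not tested. Because fru goes against one label, the lines are named below only by what their libraries are labelled, and every direction rests on those labels.

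Partners of fru in chromatin differed little. Of 8 genes of that list, 3 were called higher and 0 lower in the libraries labelled 31593, beside 18.0% and 18.4% of all genes tested. Apart from fru these were lola, a BTB zinc-finger factor (log2 fold change 0.15), and bonus (bon), a cofactor recruited by Fru (0.21). The call of bon (adjusted p = 0.015) was lost without either library labelled VDRC105005 (0.089 and 0.073), without replicate 2 labelled 31593 (0.073) and with DESeq2 (0.11). doublesex (dsx), the other terminal gene of the sex hierarchy, stood at 75.5 and 73.4 CPM against 79.6 and 77.9 CPM and was not called (log2 fold change -0.09, adjusted p = 0.085). tra2, the splicing cofactor that acts upstream of both, stood at 99.7 and 97.8 CPM against 58.3 and 55.0 CPM, all below the control libraries at 146 and 149 CPM. Its log2 fold change was 0.80 (SE 0.04, adjusted p = 2.2e-05). Sxl was also called higher (0.39). The lower calls of msl-2 (-0.16, adjusted p = 0.04) and of Yp1 (-0.32, adjusted p = 0.024) were lost without replicate 1 or 2 labelled VDRC105005 and with DESeq2 (adjusted p = 0.39 and 0.11).

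Between the lines, 4186 genes (36.3% of those tested) were called at an adjusted p under 0.05. Of these, 2069 (18.0%) were higher and 2117 (18.4%) lower in the libraries labelled 31593. These shares are the background for the counts of calls in every list. Scaling by library size alone, without TMM factors, gave 1635 higher and 2672 lower. Most calls were small: 2742 of them (65.5%) were under 0.5 on the log2 scale, and 183 (4.37%) were 2 or more. At stricter limits, with the study's p of 0.001 applied here to the adjusted p and a change of 4-fold or more, 82 genes (0.712%) were differentially expressed (DEGs), 51 higher (0.443%) and 31 lower (0.269%). The study's methods do not say whether that p was adjusted, and an unadjusted p gave 129 DEGs. The count of DEGs was 49 without replicate 1 labelled VDRC105005 and 53 without replicate 2 labelled VDRC105005, where the lone library of that line is assumed to vary like the other line.

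**Figure D1:**
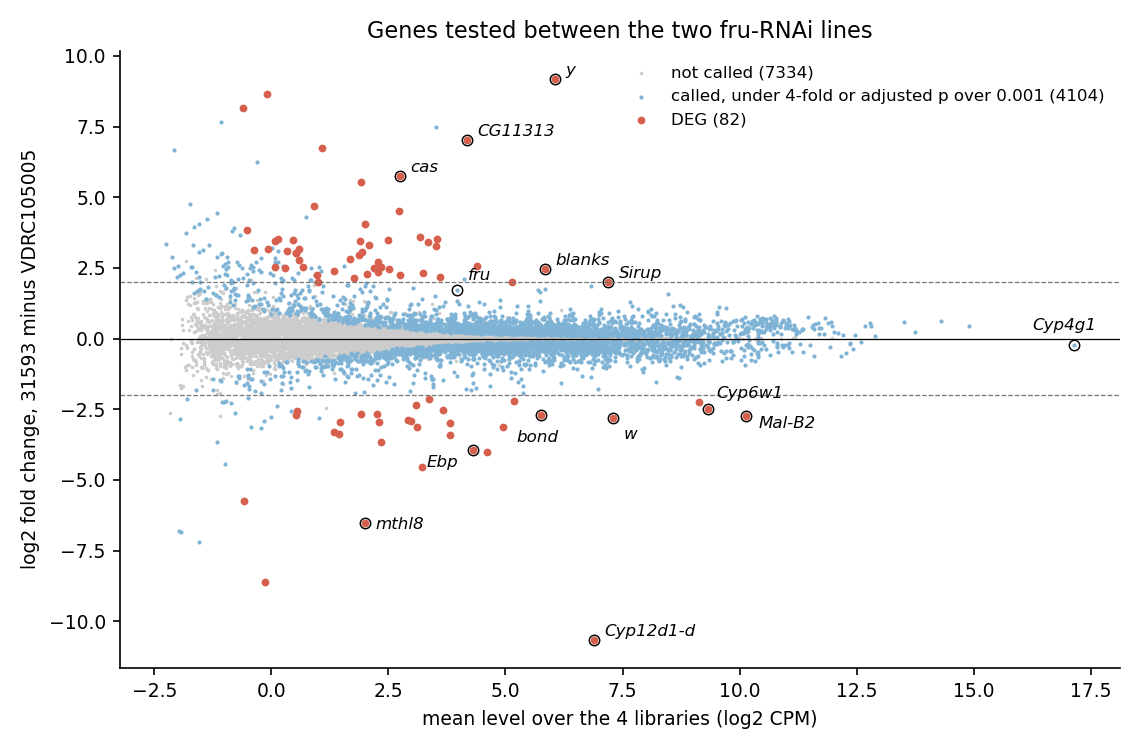
Log2 fold change (31593 minus VDRC105005, y axis) against the mean level over the 4 libraries (log2 CPM, x axis) of all 11520 genes tested. Grey points were not called, blue points were called, and the 82 red points are DEGs, beyond the dashed lines at a 4-fold change. fru is called higher (1.71) but lies inside the dashed lines, and y and Cyp12d1-d lie farthest out. The value of Cyp12d1-d alone is uncertain, because a near-identical copy can share its reads.

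yellow (y), which encodes a secreted protein needed for black pigment and male courtship, gave the largest positive fold change. It stood at 133 and 134 CPM in the libraries labelled 31593 and at 0.160 and 0.295 CPM in those labelled VDRC105005, beside 0.449 and 0.0892 CPM in control (log2 fold change 9.19, SE 0.12, adjusted p = 5.5e-07). white (w), an ABC transporter subunit for eye pigment precursors, went the other way, with 39.9 and 39.2 CPM against 278 and 275 CPM. Control stood between the lines at 136 and 134 CPM, and the log2 fold change was -2.81 (SE 0.03, adjusted p = 1.3e-07). Both genes are widely used as visible markers of transgenes and are commonly mutated in laboratory stocks. The labels do not give the markers of these stocks, and their part in these differences was not tested. vermilion (v), another common marker, stood at 51.7 and 50.7 CPM against 63.8 and 69.1 CPM (log2 fold change -0.38, adjusted p = 0.0019). tiptop (tio), a zinc-finger gene that lies beside a landing site used for hairpins of the Vienna collection, was not higher in the libraries labelled VDRC105005: it stood at 9.11 and 8.69 CPM against 6.65 and 5.93 CPM, with control at 11.8 and 9.93 CPM. The call of tio in the opposite direction (0.49, adjusted p = 0.015) was lost without replicate 1 labelled 31593 (0.071), without replicate 2 labelled VDRC105005 (0.072), with DESeq2 (0.053), with limma on the deposited values plus 1 (0.063) or plus 0.1 (0.083) and with edgeR's exact test (0.12). Its paralog teashirt (tsh) was not called (log2 fold change -0.05). The labels do not give the insertion site of either hairpin, and its part in the level of tio was not tested.

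The other genes with the largest positive fold changes were mostly near the detection limit in the libraries labelled VDRC105005. CG11313, a predicted serine protease gene, stood at 36.3 and 35.7 CPM against 0.320 and 0.221 CPM (log2 fold change 7.01, SE 0.12). castor (cas), a zinc-finger factor of neuroblast temporal patterning, stood at 13.9 and 12.5 CPM against 0.224 and 0.258 CPM (5.75, SE 0.16). Control libraries held under 0.3 CPM of CG11313 and under 0.04 CPM of cas, so that in both genes the libraries labelled 31593 stood apart from all the others compared. Spn75F, a serpin gene, held 96 and 104 counts against 1 and 1, a ratio of 120 with an exact 95% counting interval from 32.7 to 995. Sema2b, a secreted axon guidance semaphorin, stood at 12.9 and 12.4 CPM against 0.544 and 0.553 CPM (4.51, SE 0.14). CG15711, on the same chromosome arm (2R), stood at 21.9 and 21.1 CPM against 2.05 and 1.66 CPM (3.52). Drgx, a homeobox gene, and its neighbour CG3604 on chromosome 2L were higher together (3.59 and 3.49). The remaining genes of the 12 were CG43680 (5.54), CG13532 (4.69), CG13177 (4.07) and CG5282 (3.47). Or69a, an odorant receptor gene, and CG33764 held 0 counts in both libraries labelled VDRC105005 and were at least 12.8-fold and 18.3-fold higher in those labelled 31593, taking 3 counts per library as the floor.

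Among the other DEGs that were higher in the libraries labelled 31593, blanks, Sirup and mbl are given here, chosen after their values were seen. blanks, which encodes a double-stranded RNA-binding protein of the male germ line, stood at 98.5 and 95 CPM against 18.8 and 15.8 CPM, and both lines lay below control at 394 and 399 CPM (log2 fold change 2.47, SE 0.08, adjusted p = 5e-06). Sirup, an assembly factor of succinate dehydrogenase, stood at 238 and 232 CPM against 58.0 and 58.6 CPM (2.0, SE 0.03), with control between them at 121 and 122 CPM. muscleblind (mbl), a splicing regulator, stood at 55.8 and 57.2 CPM against 14.1 and 13.7 CPM (2.01, SE 0.05). The core of the hairpin machinery was closer: Dcr-2 stood at 49.8 and 49.0 CPM against 54.8 and 50.6 CPM and was not called (-0.10, adjusted p = 0.16), while AGO2 was called lower (-0.44) and AGO1, of the microRNA pathway, was called higher (0.31). Of 19 small RNA genes tested, 2 (10.5%) were called higher and 3 (15.8%) lower, near the 18.0% and 18.4% of all genes tested.

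**Figure D2:**
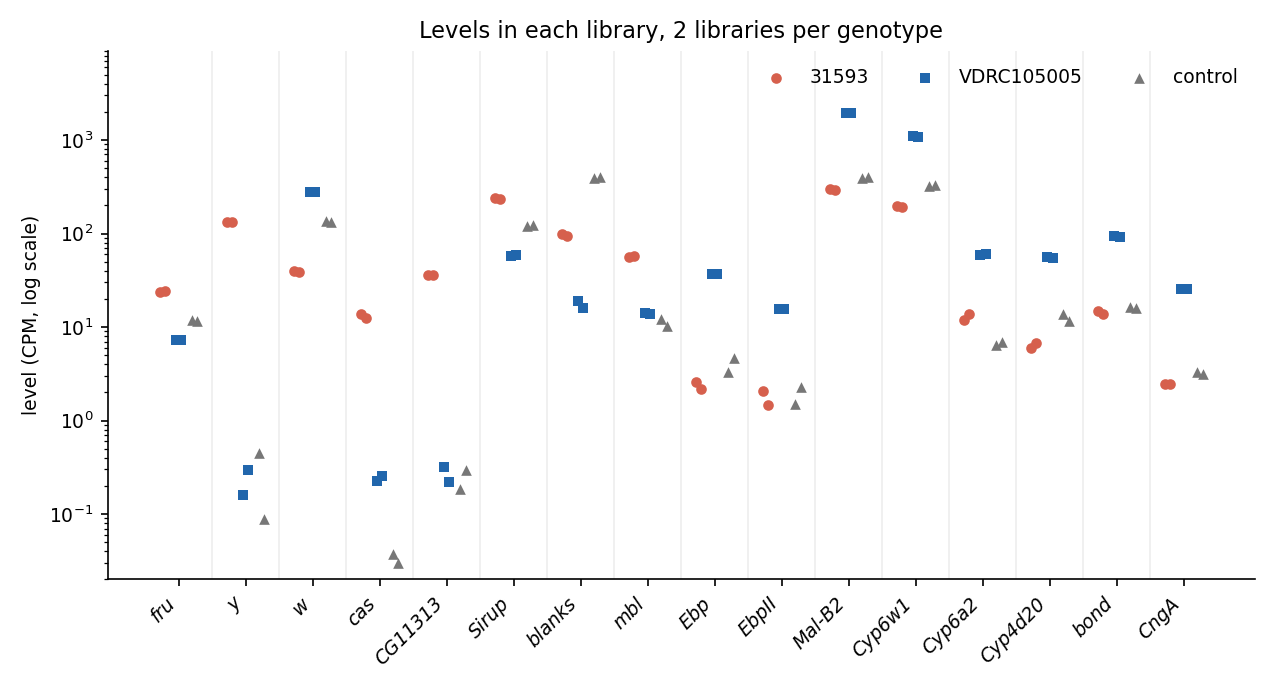
Level of 16 genes (CPM, log axis) in each library labelled 31593 (red circles), labelled VDRC105005 (blue squares) and in each control library (grey triangles). Paired symbols of a genotype lie close together, and control lies between the lines for fru, w and Sirup but near the libraries labelled 31593 for Ebp, bond and CngA.

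The largest negative fold changes included a cytochrome P450 gene with a near-identical copy. Cyp12d1-d held 0 and 7 counts in the libraries labelled 31593 and 7569 and 6347 in those labelled VDRC105005, or 242 and 234 CPM, beside 40.6 and 38.8 CPM in control. The tandem copy Cyp12d1-p stood at 75.6 and 69.8 CPM against 101 and 98.4 CPM (log2 fold change -0.46). RSEM divides reads that fit both copies between them, so the value of either copy is uncertain, whereas their sum does not depend on that division. Together the copies gave 75.6 and 70.1 CPM in the libraries labelled 31593, 343 and 332 CPM in those labelled VDRC105005 (4.63-fold higher) and 67.7 and 64.6 CPM in control. mthl8, of the methuselah-like receptor family, held 2 and 2 counts against 249 and 216, a ratio of 97.2 with an exact 95% counting interval from 37.7 to 358. pre-mod(mdg4)-B held 0 and 0 counts against 48 and 57, at least 14.5-fold higher in the libraries labelled VDRC105005 at a floor of 3 counts per library. It shares exons with mod(mdg4), and its reads cannot be told apart from those of that gene in these tables. CG18853 stood at 2.03 and 3.71 CPM against 46.2 and 44.9 CPM (-4.02), and it overlaps Prosalpha1R.

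Most of the other genes with large negative fold changes were low in control as well. CngA, a subunit of a cyclic nucleotide-gated channel, stood at 2.43 and 2.44 CPM against 25.8 and 25.8 CPM, beside 3.29 and 3.15 CPM in control (log2 fold change -3.41, SE 0.07, adjusted p = 2.1e-06). CG17738 stood at 0.581 and 0.987 CPM against 17.6 and 18.0 CPM (-4.54), with control at 4.04 and 3.86 CPM. CG42876 stood at 0.617 and 0.893 CPM against 9.85 and 9.03 CPM (-3.66), and CG10814 at 0.508 and 0.423 CPM against 4.06 and 5.16 CPM (-3.29). beat-IV, of the beaten path family of neuronal adhesion proteins, was the exception, at 0.617 and 0.329 CPM against 5.05 and 4.94 CPM, with control at 5.88 and 5.92 CPM (-3.36). Mal-B2, a maltase chosen after its values were seen, stood at 296 and 292 CPM against 1945 and 1953 CPM, with control at 395 and 406 CPM (-2.74, SE 0.02, adjusted p = 2.9e-08). In CG42808, chosen in the same way, both lines lay below control (1564 and 1593 CPM), at 200.4 and 190 CPM against 936 and 913 CPM (-2.25).

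Where control stood differed between the directions. For 47 of the 51 DEGs that were higher in the libraries labelled 31593, the mean log2 level of control was nearer to the line labelled VDRC105005, and in 38 of them it was within 2-fold of it. For 22 of the 31 DEGs that were lower in the libraries labelled 31593, control was nearer to the line labelled 31593, and in 19 it was within 2-fold of it. Control lay between the lines for 53 of the 82 DEGs, 26 higher and 27 lower. This was counted by sign alone, so control at nearly the level of either line counts as well. An example is Sema2b, with control at 0.412 and 0.862 CPM and the libraries labelled VDRC105005 at 0.544 and 0.553 CPM. These counts are a description, with no test: a gene near 0 in one line passed the filter on low counts only through the other line.

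DEGs were a smaller share of the genes tested on the X chromosome than on the major autosomal arms, a description with no test. They made up 22 of 2178 genes tested on 2L (1.01%), 25 of 2394 on 2R (1.04%), 15 of 2171 on 3L (0.691%) and 17 of 2829 on 3R (0.601%), but 3 of 1842 on X (0.163%) and 0 of 79 on chromosome 4. Calls at an adjusted p under 0.05 ranged from 34.5% on X to 37.5% on 2R over these 5 arms, and made up 34 of the 79 genes on chromosome 4 (43.0%). Of the 82 DEGs, 22 had another DEG within 10 kb, in 14 pairs, and the members of all 14 pairs differed in the same direction. Among all genes tested, 2.32% had a DEG other than themselves within 10 kb, and of 4376 pairs of called genes that close, 55.8% shared a direction. Members of a cluster enter several pairs, so the pairs are not independent. Pairs or trios of this kind were Sfp60F, EbpII and Ebp (2R), Acp53C14a, Acp53C14b and Acp53Ea (2R), Mst57Da and Mst57Db (3R), CG17738 and Sfp87B (3R), and Mal-B2 and CG46426 (2L).

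Ribosomal protein genes differed in one direction. Of 92 cytosolic ribosomal protein genes tested, 84 were called higher in the libraries labelled 31593 and 0 lower, and the median of their log2 fold changes was 0.53 (all genes: -0.01). All 93 genes of the family summed to 155700 and 155600 CPM against 108400 and 109200 CPM, with control between the lines at 120200 and 119800 CPM. RpL39 stood at 987 and 963 CPM against 518 and 485 CPM (0.95, SE 0.03), RpL29 at 734 and 726 CPM against 406 and 386 CPM (0.88), RpL3 at 4642 and 4681 CPM against 3417 and 3438 CPM (0.44) and RpLP0 at 2651 and 2693 CPM against 2228 and 2255 CPM (0.25). RpS10a, the paralog of RpS10b that is known for expression in germ cells, was the one DEG of the family, at 7.77 and 7.70 CPM against 1.5 and 1.22 CPM (2.49, SE 0.16), although paralogs can share reads. The 8 members that were not called included RpS15Ab, RpL10Aa and RpLP0-like, from -0.04 to 0.07. Under scaling by library size alone, and under DESeq2, 84 were also called higher and 0 lower. Ribosomal protein transcripts are short, and transcript length moved with the fold change among the shortest genes: among other genes of at least 32 CPM, the median was 0.22 for 36 genes of up to 500 exonic bases and from -0.05 to 0.06 in all bins above that. Ribosomal protein genes of 900 to 1200 bases had a median of 0.50 (22 genes), where 229 other genes of that length had -0.02. The part of transcript length in the difference was not tested beyond these bins.

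Genes of the mitochondrial genome differed in the same direction, in a list added after its values were seen. Of 13 such genes, 12 were called higher in the libraries labelled 31593 and 0 lower (median log2 fold change 0.58). The list summed to 100200 and 95510 CPM against 69720 and 63140 CPM, with control at 66170 and 65670 CPM. mt:CoI, a cytochrome oxidase subunit, stood at 35840 and 34320 CPM against 26810 and 24580 CPM (0.44, SE 0.04), and mt:ND3, of complex I, at 1183 and 1103 CPM against 575 and 501 CPM (1.08, SE 0.06). Nuclear genes of the same respiratory complexes were called in both directions. Of 87 tested, 10 were called higher and 30 lower with a median of 0.00, and of 73 mitochondrial ribosomal protein genes 4 were called higher and 11 lower (median -0.10). The last counts moved with the method, to 3 higher and 3 lower with DESeq2, 1 and 1 with the exact test, and 2 and 17 with scaling by library size alone.

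Proteasome genes were lower. Of 48 tested, 0 were called higher and 30 lower in the libraries labelled 31593 (median log2 fold change -0.24), and the list summed to 11360 and 11260 CPM against 13780 and 13850 CPM, with control at 11600 and 11650 CPM. The proteasome has a catalytic 20S core of alpha and beta subunits and a 19S regulatory particle of Rpn and Rpt subunits. Divided in this way after the values were seen, and without the R and testis paralogs, all 18 Rpn and Rpt genes were called lower (median -0.48), as were 11 of the 14 core genes (median -0.14). Rpt6, an ATPase of the base, stood at 179 and 171 CPM against 284 and 292 CPM (-0.72, SE 0.03), and Rpn1 at 213 and 208 CPM against 330.0 and 338 CPM (-0.67, SE 0.02). Rpn3 (-0.65) and Rpn7 (-0.63) of the lid followed among the Rpn and Rpt genes, which ranged from -0.72 to -0.26. The core genes ranged from -0.94 to 0.065, so the lowest value of all 48 was that of a core gene.

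**Figure D3:**
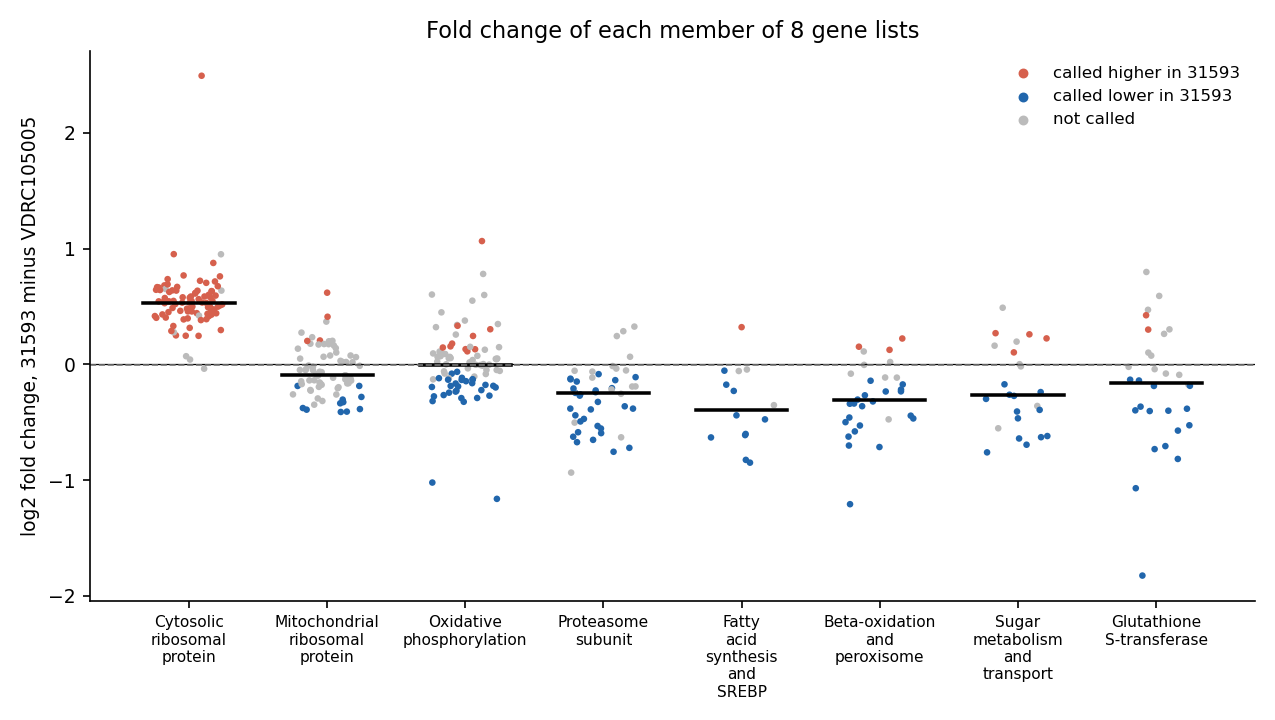
Log2 fold change (31593 minus VDRC105005, y axis) of each tested member of 8 gene lists (x axis). Points are genes, red if called higher, blue if called lower and grey if not called, black bars are list medians, and the dashed line is the median of all genes (-0.01). The median of the cytosolic ribosomal proteins is 0.53, that of the proteasome -0.24 and that of the fatty acid synthesis genes -0.40.

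Most genes that make fatty acids were lower in the libraries labelled 31593. Of 14 tested, 10 were called lower, 1 higher and 3 in neither direction (median log2 fold change -0.40). FASN1, the fatty acid synthase of the fat body, stood at 2506 and 2414 CPM against 3771 and 3713 CPM (-0.61, SE 0.02), and FASN2, an oenocyte fatty acid synthase, at 3671 and 3625 CPM against 5484 and 5530 CPM (-0.60, SE 0.02). FASN3, the oenocyte synthase linked to very long chain fatty acids and waterproofing, was the one called higher, at 2911 and 2790 CPM against 2327 and 2216 CPM (0.32, SE 0.03). Both lines lay far above control for FASN3 (633 and 632 CPM). ACC, acetyl-CoA carboxylase, differed less, at 2366 and 2336 CPM against 2661 and 2625 CPM (-0.18, SE 0.02). The suppliers of acetyl-CoA, AcCoAS (-0.63) and ATPCL (-0.48), were called lower, as was SREBP, the transcription factor of lipid synthesis (-0.44). The NADPH-forming enzymes of the pentose phosphate pathway were the lowest of the list: Pgd stood at 440 and 431 CPM against 767 and 794 CPM (-0.85), and Zw at 199 and 205.4 CPM against 350 and 363 CPM (-0.83), with control at 743 and 743 CPM.

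The steps after fatty acid synthesis did not share a direction. Of 17 elongases tested, 7 were called higher and 6 lower (median log2 fold change 0.06). bond, an elongase needed in sperm formation and for a male pheromone of the ejaculatory bulb, was the one DEG. It stood at 15.0 and 14 CPM against 95.1 and 92.4 CPM, with control at 16.4 and 16.1 CPM (-2.70, SE 0.05, adjusted p = 1.3e-06). CG31523 stood at 7668 and 7515 CPM against 5612 and 5474 CPM (0.45, SE 0.02) and CG30008 at 3539 and 3475 CPM against 4350 and 4294 CPM (-0.31, SE 0.02), in opposite directions. eloF, which lengthens the dienes of females, was called lower (-0.45), as was CG16904 (-0.23), and CG8534 was called higher (0.76). Of 5 genes listed for the rest of the elongation cycle, 2 were called higher and 2 lower (median 0.09). These counts and the median include kar (0.40, called higher), which encodes the transporter karmoisin and not an enzyme of the cycle. The reductases Sc2 (-0.42) and spidey (-0.23) were lower, and Hacd1 (0.17) was higher. Desat1, the main desaturase, stood at 4147 and 4022 CPM against 4036 and 3925 CPM and was not called (0.03, adjusted p = 0.3), while Fad2, a desaturase known for female dienes, stood at 11.1 and 10.4 CPM against 5.37 and 6.15 CPM (0.89, adjusted p = 0.0016). Among 14 acyl-CoA reductases tested, 3 were called higher and 3 lower, led by CG1441 (1.17) and CG17562 (-0.68). For Cyp4g1, given above, the log2 fold change was -0.22 (SE 0.04, adjusted p = 0.0055), and this call was lost without replicate 2 labelled 31593 (adjusted p = 0.19) and with a minimum of 10 counts in every library (adjusted p = 0.071). Its electron donor Cpr was called lower (-0.37), and Cyt-b5-r stood at 578 and 577 CPM against 1006 and 995 CPM (-0.80, SE 0.01).

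Genes of fatty acid breakdown were also lower in the libraries labelled 31593. Of 31 genes of beta-oxidation and the peroxisome tested, 3 were called higher and 21 lower (median log2 fold change -0.31). yip2, a mitochondrial thiolase, stood at 171 and 173 CPM against 276 and 281 CPM (-0.70, SE 0.02). Of 30 genes of lipid storage and transport tested, 8 were called higher and 12 lower. The lipoprotein genes were among the lowest: apolpp, the precursor of the main lipid carrier of the haemolymph, stood at 782 and 761 CPM against 1487 and 1421 CPM (-0.92, SE 0.02), and Apoltp (-0.72) and Mtp (-0.69), which load it with lipid, were lower too. Lsd-1, a lipid droplet protein, was lower (-0.78), and both lines lay below control for it. Of 15 fat body markers tested, 3 were called higher and 8 lower (median -0.54). All 16 markers of that list summed to 6277 and 6189 CPM against 8403 and 8345 CPM, with control at 5300 and 5270 CPM. That list shares apolpp, Apoltp, Lsd-1 and FASN1 with the lipid lists, and Lsp2, a larval serum protein of the fat body, went the other way at 521 and 543 CPM against 177 and 174 CPM (1.59, SE 0.03). The part of fat body in the lipid differences was not tested.

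Sugar metabolism followed the lipid genes. Of 24 genes tested, 4 were called higher and 13 lower (median log2 fold change -0.27). Pgi stood at 781 and 785 CPM against 1323 and 1317 CPM (-0.76, SE 0.02), Glyp, glycogen phosphorylase, at 649 and 632 CPM against 1029 and 1034 CPM (-0.70), and Treh, trehalase, at 312 and 311 CPM against 486 and 481 CPM (-0.64). InR, the insulin receptor, was higher, at 68.6 and 66.3 CPM against 36.9 and 35.3 CPM (0.90, SE 0.04, adjusted p = 2e-05), with control between the lines at 56.9 and 56.3 CPM. Of 21 genes of insulin and TOR signalling tested, 6 (28.6%) were called higher and 5 (23.8%) lower. For Hnf4, the nuclear receptor that controls lipid genes in oenocytes, the libraries labelled 31593 stood at 540 and 528 CPM against 480 and 483 CPM (0.14, SE 0.02, adjusted p = 0.0013), both lines above control at 461 and 455 CPM. Among 17 nuclear receptors tested, 8 were called higher and 1 lower, with ftz-f1 (0.63), Hr39 (0.46), EcR (0.32) and svp (0.30) above Hnf4. The calls of Hr39 and EcR were lost without replicate 2 labelled VDRC105005 (adjusted p = 0.055 and 0.054), and that of Hr39 also without replicate 1 of either line. Of the clock genes, 7 of 14 were called higher and 2 lower, beside 18.0% and 18.4% of all genes tested. Their log2 fold changes ranged from -0.92 to 0.94, and Cipc (0.94), Clk (0.85) and tim (0.56) were among those higher.

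Detoxification genes held several of the largest differences. Of 81 cytochrome P450 genes tested, 19 were called higher and 33 lower in the libraries labelled 31593 (median log2 fold change -0.14), and all 4 DEGs of the family were lower. Cyp6w1 stood at 197 and 193 CPM against 1097 and 1074 CPM, with control at 323 and 331 CPM (-2.49, SE 0.02, adjusted p = 4.7e-08). Cyp4d20 stood at 5.99 and 6.76 CPM against 55.8 and 54.2 CPM (-3.12, SE 0.07), and Cyp6a2, known for overexpression in insecticide-resistant strains, at 11.9 and 13.8 CPM against 59.0 and 60.3 CPM (-2.23, SE 0.08). Cyp12d1-d, given above, was the fourth, but its single value is uncertain. Together with Cyp12d1-p it was 4.63-fold higher in the libraries labelled VDRC105005. Cyp6a8 fell short of the 4-fold threshold, at 58.4 and 54.7 CPM against 197 and 192 CPM (-1.79). Of 30 glutathione S-transferase genes tested, 2 were called higher and 16 lower (median -0.16), among them GstD1 at 256 and 253 CPM against 416 and 410 CPM (-0.71, SE 0.02). UDP-glycosyltransferases showed no such direction, with 7 of 24 called higher and 4 lower. MtnA, a metallothionein, stood at 230.0 and 230.2 CPM against 604 and 601 CPM, with control at 482 and 482 CPM (-1.40, SE 0.02).

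**Figure D4:**
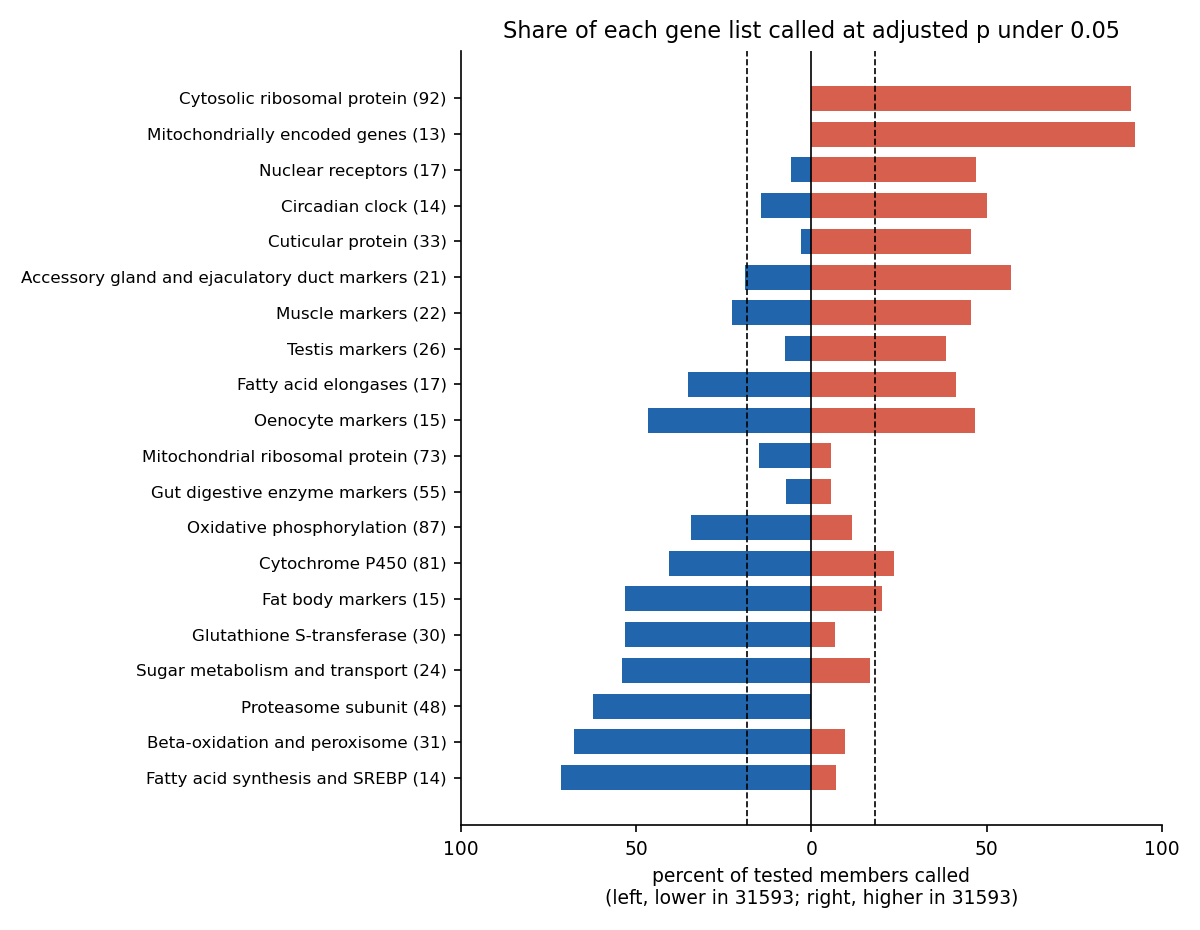
Percent of the tested members (number in brackets) of 20 gene lists called lower (blue, to the left) and higher (red, to the right) in the libraries labelled 31593 at an adjusted p under 0.05. Dashed lines mark the share of all 11520 genes, 18.4% lower and 18.0% higher. The ribosomal protein and mitochondrially encoded lists stand out to the right and fatty acid synthesis, beta-oxidation and the proteasome to the left.

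Genes of the male reproductive tract, a tissue other than the one labelled, split in opposite directions. Of 21 accessory gland and ejaculatory duct genes tested, 12 were called higher and 4 lower in the libraries labelled 31593, with 4 DEGs higher and 2 lower (median log2 fold change 2.02). The 12 higher were seminal proteins of the accessory gland, such as Acp98AB at 6.86 and 6.86 CPM against 0.831 and 0.774 CPM (3.08, SE 0.16) and Acp36DE, needed for sperm storage, at 9.58 and 7.23 CPM against 1.28 and 1.29 CPM (2.70, SE 0.19). Sex Peptide (SP), which alters the behaviour of mated females, stood at 4.32 and 2.63 CPM against 0.735 and 0.442 CPM (2.54, adjusted p = 0.0025). The 4 lower were Ebp, EbpII and EbpIII of the ejaculatory bulb and the esterase Est-6. Ebp stood at 2.61 and 2.16 CPM against 37.0 and 36.9 CPM, with control at 3.33 and 4.67 CPM (-3.95, SE 0.09, adjusted p = 2.2e-06), and EbpII at 2.07 and 1.46 CPM against 15.7 and 15.5 CPM (-3.14, SE 0.16). EbpIII stood at 504 and 503 CPM against 655 and 671 CPM (-0.41). The 5 others were not called, with log2 fold changes from -0.39 (Dup99B) to 1.85 (Sems). Outside this list the DEGs named for seminal fluid genes also split, with Mst57Da (2.19) and Mst57Db (2.33) higher and Sfp60F (-2.66) and Sfp87B (-2.87) lower. In all, 40 genes tested carry an Acp, Sfp, Mst57D or Ebp symbol, and 13 of them (32.5%) were DEGs, 9 higher and 4 lower, beside 0.712% of all genes tested. These symbols were picked after the DEGs were seen. Whether these transcripts come from oenocytes or from reproductive tissue left on the dissected samples was not tested.

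**Figure D5:**
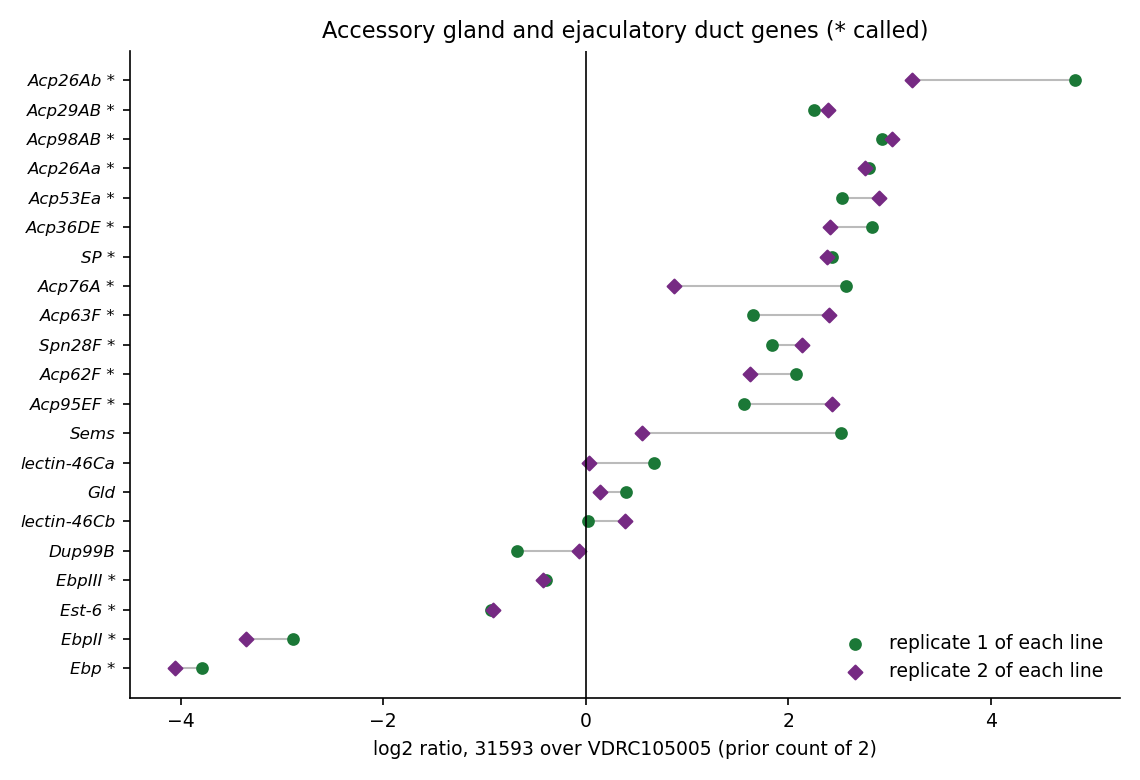
Log2 ratio of the libraries labelled 31593 over those labelled VDRC105005 (x axis, prior count of 2) for 21 accessory gland and ejaculatory duct genes (y axis), computed from the libraries numbered 1 (green circles) and from those numbered 2 (purple diamonds), asterisks marking called genes. The 12 accessory gland genes called higher are above 0 and Ebp, EbpII, EbpIII and Est-6 below 0 in both pairs of libraries. The calls come from these same 4 libraries, so this shared sign is a description and not a separate check.

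Other cell type lists moved less, and their counts stand beside 18.0% of all genes called higher and 18.4% called lower. Of 26 testis markers tested, 10 were called higher and 2 lower (median log2 fold change 0.22), and of 22 muscle markers 10 were called higher and 5 lower (0.11). Of 14 neuron and glia markers, 4 were called higher and 1 lower, and of 14 haemocyte markers, 2 were called higher and 5 lower. The haemocyte markers that were lower included the collagen IV genes vkg (-1.09) and Col4a1 (-0.89), which fat body also makes. Col4a1 stood at 82.7 and 84.4 CPM against 152 and 155 CPM. Of the 15 oenocyte markers, 7 were called higher and 7 lower (median 0.03). The spalt genes, which specify oenocytes in the embryo, went opposite ways: salm stood at 58.0 and 56.4 CPM against 34.7 and 34.7 CPM (0.71, SE 0.04), and salr at 34.9 and 34.1 CPM against 76.2 and 76.5 CPM (-1.15, SE 0.04). Of 33 cuticular protein genes tested, 15 were called higher and 1 lower (median 0.28), and ebony (e), a beta-alanyl-dopamine synthase of cuticle pigmentation, was higher at 17.4 and 17.9 CPM against 7.93 and 7.85 CPM (1.15, SE 0.07).

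Stress and immune lists, except that of Turandot and JAK-STAT genes, held calls in both directions, as did all genes tested (18.0% higher and 18.4% lower). Of 43 genes of antimicrobial defence tested, 12 (27.9%) were called higher and 10 (23.3%) lower (median log2 fold change -0.07). Drs, the antifungal peptide Drosomycin, stood at 11.0 and 8.88 CPM against 30.0 and 29.1 CPM (-1.58, SE 0.10), and PGRP-SD, a recognition protein for bacterial peptidoglycan, was lower too (-1.21). BaraA2 was called higher (7.50, adjusted p = 0.032), but rested on replicate 2 labelled 31593, at 1.09 and 44.3 CPM against 0.128 and 0.111 CPM, and the call was lost without replicate 1 or replicate 2 labelled VDRC105005 (adjusted p = 0.14 and 0.12). BaraA1, at 597 and 553 CPM against 812 and 819 CPM, was lower (-0.51), but BaraA1 and BaraA2 are near-identical copies whose shared reads RSEM divides, so BaraA2 is uncertain. Of 10 Turandot and JAK-STAT genes tested, 4 were called higher and 0 lower, with TotA at 59.6 and 54.3 CPM against 33.2 and 35.0 CPM (0.73). Among 19 heat shock genes, 11 were called higher and 5 lower, with Hsp70Ba (1.34) the highest, although the Hsp70 copies share reads and their single values are uncertain. Of 16 genes of endoplasmic reticulum stress tested, 5 were called higher and 5 lower. Xbp1, a factor of the unfolded protein response, was the lowest of them at 1001 and 993 CPM against 1426 and 1442 CPM (-0.53, SE 0.02). Of 15 apoptosis genes tested, 6 were called higher and 2 lower (2 and 2 with DESeq2), with log2 fold changes from -2.92 to 1.99. The lowest was rpr, a trigger of apoptosis (-2.92, adjusted p = 0.0012). It was low in both lines, at 0.182 and 0.235 CPM against 1.76 and 1.40 CPM, with control at 6.40 and 6.39 CPM.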

How the data were processed

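Oenocyte RNA of 2 libraries per line was compared between the fru-RNAi lines 31593 and VDRC105005. The deposited expected counts are estimates the authors made per gene with RSEM 1.2.31 after fastp 0.22.0 and bowtie2 (dme6), without normalization. The deposited TPM values of the authors were scaled within each library. A further table deposited by the authors, treated as a score, holds TPM multiplied by a factor per library. Expected counts were rounded. Genes were kept by filterByExpr (minimum count 10, total 15), normalized by TMM and tested with edgeR 4.0.16 (glmQLFit, glmQLFTest) with Benjamini-Hochberg adjustment over the 11520 genes tested. Adjusted p values come from this test. CPM were computed with TMM factors over all 10 libraries. Positions and exons are from BDGP6.54, which matched 13983 of 13986 identifiers. The table held no sample column without a label.

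Lists, families and members were chosen with earlier results of these data known. Lists are described by counts of calls and by medians, without a set test. Named genes are fru, members of the lists, and, among DEGs with a mean of at least 50 counts in the higher line, the 12 largest fold changes in each direction. Pairs of DEGs within 10 kb, length bins, the mitochondrially encoded list and fits without a replicate number in both lines were added after the data were seen. Alternatives used DESeq2 1.42.0, limma 3.58.1 on log2 of the deposited value plus 1 or 0.1, other filters and scaling, a replicate block, and fits without single libraries. On counts simulated for this comparison, with 100 genes at each fold, 71 genes changed 2-fold and 99 changed 5.66-fold were called, as were 21 of 11172 unchanged genes. The simulated libraries were drawn independently, without the split between libraries numbered 1 and 2 seen in both lines. These counts therefore do not give the error rate in the real libraries. The libraries of a line differed by more than sampling noise (chi-square per degree of freedom 5.87 and 6.66). Counting intervals cover counting error only. R 4.3.3, Python 3.11.15 and matplotlib 3.10.9 were used.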

Additional observations from a re-analysis of the deposited data

How the results depend on the processing

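Of 149 genes examined singly, the 143 that were called kept their direction under the alternatives that gave them a value, while 3 of the 6 not called changed sign: Desat1 (-0.03 to 0.06), Desat2 (-0.52 to 0.60) and tsh (-0.17 to 0.07). In addition, the 24 genes named for their fold change were called under each alternative with a test that kept them in the table. Both the 143 and the 24 were chosen by the main fit on libraries that the alternatives reuse, so their stability is not independent evidence. The number of DEGs, 82, became 157 with edgeR's exact test, 46 with limma on the deposited values plus 1, 129 at an unadjusted p of at most 0.001 and 493 at a 2-fold change with an adjusted p under 0.05. Past 4-fold with no test there were 194 genes in the libraries numbered 1 and 186 in those numbered 2. Leaving out one library gave between 49 and 63 DEGs. The number of called genes, 4186, became 2419 with the exact test, and leaving out one library gave between 2898 and 3466. DESeq2 gave 111 DEGs and 2920 called genes, and all 82 DEGs were among its 111. The log2 fold change of fru stayed between 1.64 and 2.11.

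Both lines have replicates numbered 1 and 2. Deviations of same-numbered libraries from their line means correlated at 0.547 across 11520 genes, but 2 pairs do not establish pairing. With a replicate block there were 123 DEGs and 4725 called genes, and the calls higher among 55 gut genes rose from 3 to 15. With 2 libraries per line, calls rest on dispersions shared across genes, and low genes such as BaraA2 depend on single libraries.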
